A study of Mus musculus with 12 samples.

Results

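Nocturnin (Noct) and 9 genes of the circadian clock (Arntl, Npas2, Per1, Per2, Per3, Cry1, Nr1d1, Nr1d2 and Dbp) were followed in the right atrium of adult mice. They were chosen by gene symbol, with the difference between the groups in these libraries already known. Each symbol had 1 Ensembl identifier, so the 10 genes were 10 of 40690 identifiers in the table, and all 10 were among the 14336 genes high enough to test. RNA sequencing covered 12 libraries of right atrium, 6 from littermate controls and 6 from mice with the genotype label iNICD. Both groups were given doxycycline chow for 3 weeks, starting at 2 to 3 months of age, and the tissue was taken with no period off the chow. The series concerns Notch activation and sick sinus syndrome. The sources used here do not give the promoter or cell type that drives iNICD, the strain, the sex or the time of day of collection.

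The circadian clock is a feedback loop of transcription factors that runs in nearly every cell, cardiomyocytes included. BMAL1 (encoded by Arntl) pairs with CLOCK or NPAS2 and activates genes with E-box elements, among them the Per and Cry repressors, the REV-ERB receptors Nr1d1 and Nr1d2, and the output factor Dbp. The PER and CRY proteins then block this activity, and the REV-ERB receptors repress Arntl and Npas2, so that Arntl and Dbp are known to peak at opposite times of day. Noct is an output of the clock in many tissues. Its protein belongs to an enzyme family of deadenylases, and the purified enzyme removes a phosphate from NADP and NADPH.

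Depth was 12007384 to 22700871 reads assigned to genes per library. The 4 atrial markers summed to 18979 to 23048 CPM (reads of a gene scaled to the reads assigned to all genes in that library) in controls and 7649 to 11072 CPM in iNICD, so every library carried the atrial program. All 4 of them (Nppa, Myl7, Myl4 and Sln) fell in iNICD. Notch1 ranged from 192 to 293 CPM among controls and from 3064 to 5358 CPM among iNICD libraries. The RNA Gm42418 stood at 20234 CPM in control 3, 30814 in iNICD 3 and 21474 in iNICD 5, and control 4, control 6, iNICD 4, iNICD 5 and iNICD 6 had Xist under 14 CPM. Control 6 and iNICD 6 stood apart in the clock genes. The labels do not say that each library came from a separate animal, so p-values measure the spread between these samples.

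Noct was low in every iNICD library. Noct (ENSMUSG00000023087, chromosome 3, 51224447 to 51251644, plus strand, GRCm38) was at 20.2, 30.3 and 41.0 CPM as the lowest, median and highest of the 6 controls. In the 6 iNICD libraries the corresponding Noct levels were 4.44, 7.45 and 12.7 CPM. The groups did not overlap, and Noct was lower in iNICD in all 36 pairs of a control and an iNICD library. The nearest libraries were control 6 and iNICD 5. The mean was 31.0 ± 8.64 CPM for controls against 7.86 ± 3.45 CPM for iNICD (SD, 6 libraries each). On the log2(CPM + 0.5) scale the difference, iNICD minus control, was -1.97 (SE 0.27), a ratio of 0.255. Since Noct was picked for this difference, the values are a description without a test. Without control 6 and iNICD 6 the Noct difference was -1.99, and without the 3 libraries rich in Gm42418 it was -2.26.

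Markers of other cells differed between the same groups. Of 5 macrophage markers 4 rose, with summed levels of 210 to 299 CPM in controls and 307 to 433 CPM in iNICD. Of these, edgeR called 3 and DESeq2 4, and limma called 2 without control 6 and iNICD 6, beside 6.71% of all genes tested in the full set. Both lymphocyte markers that were tested, of 5 listed, rose, at sums of 2.04 to 3.76 and 4.25 to 7.89 CPM. Of 5 fibroblast markers limma called Tcf21 alone, as higher (adjusted p = 0.048), while edgeR called 0, DESeq2 1 and limma without control 6 and iNICD 6 called 0, and the sums were 1871 to 2633 and 2202 to 3917 CPM. None of the 6 general cardiomyocyte markers was called by limma (3 had an unadjusted p under 0.05, edgeR called 1 and DESeq2 2), and their sums were 59233 to 66805 CPM for controls against 53413 to 60459 CPM for iNICD. None of the tested markers of ventricular cardiomyocytes (3 tested), endothelium (4), pericytes and smooth muscle (4), adipocytes (5), epicardium (4) or neurons and glia (4) was called by limma or edgeR, while DESeq2 called 1 endothelial and 1 neural marker, each of these lists having 1 unadjusted p under 0.05 in limma. The part of these cells in the Noct difference was not tested. In bulk tissue, fewer cells of a type and less RNA per cell cannot be told apart.

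**Figure D1:**
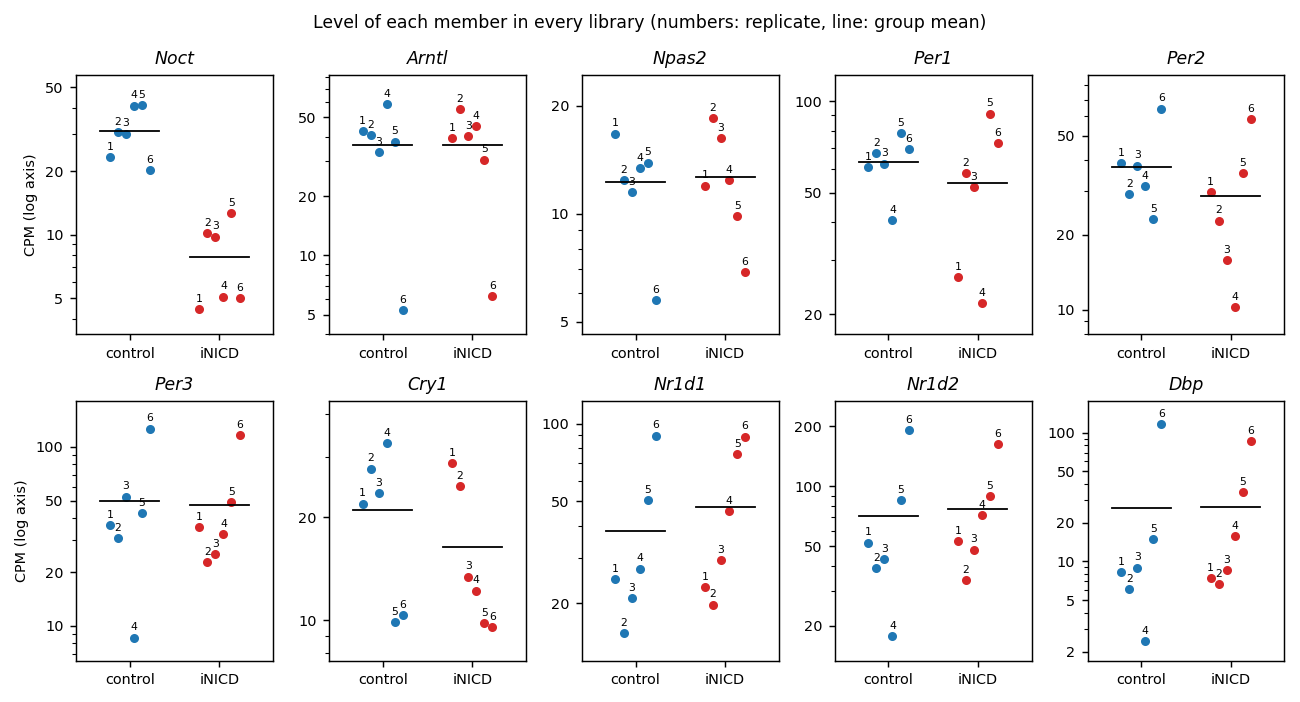
Level of each of the 10 genes in every library, in CPM on a log axis, with 1 point per library (numbers give the replicate) and a line at the mean of the 6 libraries of a group. Noct lies between 20.2 and 41.0 CPM in controls and between 4.44 and 12.7 CPM in iNICD, while the other 9 genes overlap between groups and control 6 and iNICD 6 lie at the edge for Arntl, Npas2, Per2, Per3, Nr1d1, Nr1d2 and Dbp.

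The other clock genes overlapped between the groups. Of the 10 genes only Noct passed the threshold of the fit across all genes, beside 6.71% of all genes tested, made up of 4.87% called higher and 1.84% called lower. Noct was also the only gene of the 10 without overlap between the groups, against 4.59% of all genes in either direction and 1.13% lower. None of the other 9 was called by limma, edgeR or DESeq2, and none had an unadjusted p under 0.05 in limma. As the contrast was known when the genes were chosen, these counts support nothing. The median log2 difference was 0.04 over the 9 genes and 0.05 over all genes tested.

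Among the activators, Arntl (ENSMUSG00000055116) was at 5.28, 39.3 and 58.5 CPM as the lowest, median and highest control. In iNICD the Arntl levels were 6.21, 39.9 and 55.2 CPM. The low value was in control 6 and in iNICD 6, and every other library was above 30 CPM. The log2 difference of Arntl was 0.02 (SE 0.64). Without control 6 it was -0.46 and without iNICD 6 it was 0.46, so the direction turned on a single library, and without both it was -0.02. Npas2, the partner that can stand in for CLOCK, ranged from 5.75 to 16.7 CPM in controls and from 6.87 to 18.4 CPM in iNICD, with a log2 difference of 0.04 (SE 0.25), or -0.15 without control 6 and 0.19 without iNICD 6. Its lowest values were again in control 6 and iNICD 6.

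Among the repressors, Per1, Per2 and Cry1 had negative differences and Per3 a value near 0, all with errors that left them uncalled. Per1, which also responds to acute signals such as glucocorticoids, was at 40.6, 65.0 and 78.6 CPM as the lowest, median and highest control and at 21.7, 55.1 and 91.0 CPM in iNICD, a log2 difference of -0.38 (SE 0.33). Per2 was at 23.1, 34.7 and 64.4 CPM in controls and 10.2, 26.3 and 58.2 CPM in iNICD, a log2 difference of -0.51 (SE 0.38). The lowest library of both genes was iNICD 4, and the highest of Per2 was library 6 in each group. Without iNICD 4 the log2 differences were -0.16 for Per1 and -0.26 for Per2. Per3 ran from 8.60 to 126 CPM in controls and from 22.8 to 117 CPM in iNICD (log2 difference 0.07, SE 0.59), and without control 4, its lowest library, the value was -0.34, as it was -0.24 without iNICD 6 and 0.42 without control 6. Cry1, the repressor that peaks late in the cycle, was at 9.85, 22.7 and 32.9 CPM in controls and at 9.51, 12.8 and 28.8 CPM in iNICD (log2 difference -0.35, SE 0.37), or -0.53 without control 5 or iNICD 1, -0.19 without control 4 and -0.11 without the 3 libraries rich in Gm42418. Controls 5 and 6 and iNICD 5 and 6 were the lowest for Cry1.

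The REV-ERB genes and Dbp had positive differences with wide errors. Nr1d1 was at 15.4, 26.1 and 89.7 CPM as the lowest, median and highest control and at 19.8, 37.5 and 89.0 CPM in iNICD, a log2 difference of 0.34 (SE 0.50), or 0.64 without control 6 and 0.11 without iNICD 6. Nr1d1 shares 263 exon bases with Thra on the opposite strand, and Dbp shares 539 with Sphk2. The sources used here do not give the strand setting of the counting, so reads of these overlaps cannot be told apart. Nr1d2, the second REV-ERB receptor gene, ran from 17.7 to 191 CPM in controls and from 33.9 to 163 CPM in iNICD (log2 difference 0.30, SE 0.54), and the value was -0.01 without control 4, 0.05 without iNICD 6 and 0.66 without control 6. Dbp, the output factor that binds D-box elements, was at 2.42, 8.62 and 116 CPM in controls and at 6.69, 12.2 and 86.4 CPM in iNICD (0.53, SE 0.91). The mean of Dbp was nearly the same in both groups, 26.2 ± 44.4 and 26.6 ± 31.1 CPM (SD, n = 6 each), with library 6 the highest of each. The Dbp difference was 0.00 by edgeR on recovered reads, 1.19 without control 6, 0.06 without iNICD 6 and 0.12 without control 4, whose 38 reads of Dbp were the fewest of any of the 10 genes in a library.

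Levels between genes were compared per kilobase of merged exon, using GENCODE M21 lengths. In controls the order of mean levels was Nr1d2 at 13.2 CPM per kilobase, Nr1d1 at 12.4, Per1 at 11.2, Dbp at 8.75, Per2 and then Cry1 at 6.29, Per3 at 5.17, Arntl at 4.84, Noct at 2.91 and Npas2 at 2.56. No neighbours in this order differed by more than the larger of their SDs. In iNICD the order was the same apart from a swap of Nr1d1 with Nr1d2 and of Npas2 with Noct. There Noct was last at 0.738 ± 0.324 CPM per kilobase, below Npas2 at 2.64 ± 0.877 (SD, n = 6 each), and this was the only neighbouring step larger than the larger SD. The merged lengths were 10.7 kilobases for Noct and 4.79 for Npas2, and which transcripts were present was not examined.

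Most of the 10 genes varied more within a group than most genes of the atrium. The SD of each gene about its group means, on the log2 scale, was 1.62 for Dbp, 1.16 for Arntl, 1.06 for Per3, 0.98 for Nr1d2 and 0.90 for Nr1d1, where the median of all tested genes was 0.21. It was 0.70 for Per2, 0.69 for Cry1, 0.62 for Per1, 0.52 for Noct and 0.50 for Npas2. In the ranking of all tested genes by this SD, 8 of the 10 lay above the 95th percentile, or 4 of the 10 with the replicate number as a block, and the other two, Noct and Npas2, were at percentiles 94.7 and 93.8. Among the 500 genes nearest in level each of the 10 genes lay at percentile 94.2 or above. This spread within groups did not enter the choice of the genes. Of the 10, 6 were above the 95th percentile without control 6 and iNICD 6.

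The ratio of Dbp to Arntl in CPM spread widely across libraries. Dbp was 22.1 times Arntl in control 6 and 13.9 times in iNICD 6. In the other 5 controls it was 0.0413 to 0.396 times Arntl, with the lowest ratio in control 4, and in iNICD 1 to 5 it was 0.121 to 1.13 times. Library 6 of each group was thus at the low-Arntl, high-Dbp end, and iNICD 5 was the next along.

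**Figure D2:**
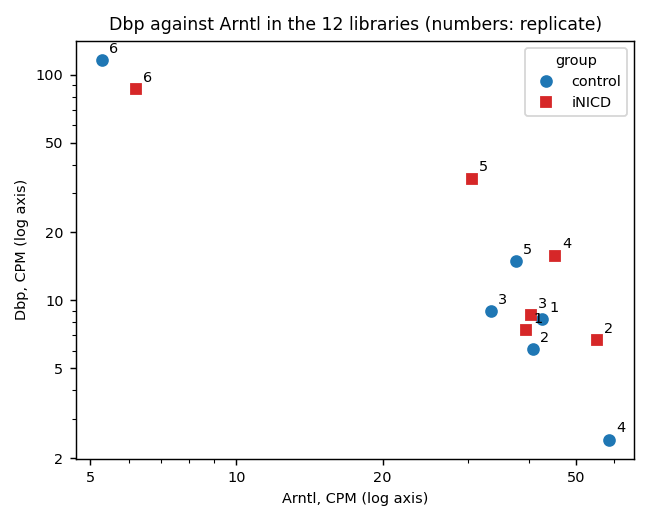
Dbp against Arntl in the 12 libraries, both in CPM on log axes, with circles for control, squares for iNICD and numbers for the replicate. Control 6 (Arntl 5.28, Dbp 116) and iNICD 6 (6.21, 86.4) sit at the upper left, apart from the other 10 libraries, and control 4 (58.5, 2.42) is at the lower right.

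The 9 clock genes co-varied in a pattern with 2 arms within each group. Arntl, Npas2 and Cry1 went together, and Per1, Per2, Per3, Nr1d1, Nr1d2 and Dbp went together and against them. Of the 18 pairs across the arms, all 18 had a negative Pearson's r in controls (median -0.77) and all 18 in iNICD (median -0.79). Of the 18 pairs within an arm, 17 were positive in controls (median 0.68) and 18 in iNICD (median 0.64). Without library 6, 12 of 18 pairs across the arms were still negative in controls (median -0.32) and 16 in iNICD (median -0.74), and 13 and 18 pairs within an arm were positive. The arms were drawn after the correlations were seen.

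Few single pairs passed correction. With 45 pairs in each of 2 groups, 90 correlations were tested by exact two-sided permutation over all 720 pairings of 6 libraries. Of these, 28 had an unadjusted p under 0.05, and 6 passed Benjamini-Hochberg correction, each at an adjusted p of 0.0417. In controls this was Nr1d2 with Dbp, at r = 0.97 and Spearman's rho = 0.94 (exact p = 0.0028 and 0.017), and r = 0.94 without the 2 libraries farthest from the median of Nr1d2. In iNICD, Nr1d2 with Dbp had r = 0.97 (rho 0.94), Nr1d1 with Dbp 0.96 (rho 1.00) and Nr1d1 with Nr1d2 0.94 (rho 0.94). The remaining pairs that passed in iNICD were negative, Npas2 with Per3 at r = -0.97 (rank order fully reversed) and Npas2 with Nr1d2 at r = -0.97 (rho -0.94). Without the 2 libraries farthest from the median, r in the 5 iNICD pairs kept its sign, at 0.96, 0.98, 0.88, -0.98 and -0.84 in the order given. By rank correlation none of the 90 passed correction (17 had an unadjusted p under 0.05), and the exact adjusted p of these 6 pairs by rho was 0.10. The count of 6 fell to 0 when any 1 library was left out. With 5 libraries the smallest exact p is 0.0083, and the correction spans both groups. The fall to 0 therefore cannot show how steady the correlations were.

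Arntl with Dbp, the pair of opposite phase, had r = -0.96 in controls (rho -0.89, exact p = 0.011, adjusted p = 0.0658) and -0.88 in iNICD (rho -0.77, exact p = 0.019, adjusted p = 0.0875). Without the 2 libraries farthest from the median of Arntl, r was -0.35 in controls and -0.66 in iNICD, so the relation in controls rested on control 4 and control 6. Without library 6 alone it was -0.85 and -0.73.

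**Figure D3:**
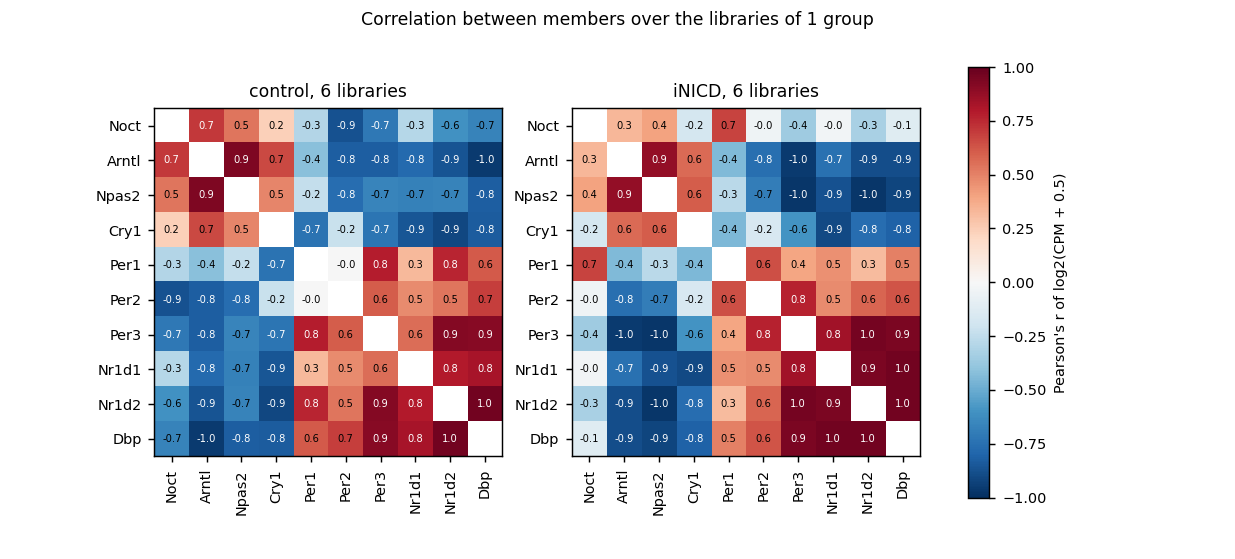
Pearson's r of log2(CPM + 0.5) between every pair of the 10 genes over the 6 libraries of a group, controls on the left and iNICD on the right, from blue (-1) to red (1). Arntl, Npas2 and Cry1 are negative against Per1 to Dbp in all 18 pairs of each group, and the r of Noct in iNICD runs from -0.35 to 0.68.

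No pair of Noct with a clock gene passed correction. Its r with the 9 clock genes in controls ran from -0.87 with Per2 to 0.71 with Arntl, and in iNICD from -0.35 with Per3 to 0.68 with Per1. Noct with Per2 in controls had rho = -0.94 and exact p = 0.014 (adjusted p = 0.0658), and r = -0.63 without control 5 and control 6. Noct with Arntl in controls had rho = 0.43 and exact p = 0.047 (adjusted p = 0.15), and r was 0.60 without control 5 and control 6 and 0.33 without control 6 alone. None of the 9 Noct pairs in iNICD had an unadjusted p under 0.05. Noct with Per1 in iNICD had r = 0.68 (rho 0.54, exact p = 0.19, adjusted p = 0.32), which was 0.34 without iNICD 1 and iNICD 5 and 0.97 without iNICD 6.

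The genes whose levels followed Noct most closely within groups were led by Errfi1. Likeness was measured as Pearson's r of deviations from the group means over the 12 libraries, among 10664 genes at a mean of at least 5 CPM. As a description with no p, the 5 highest were Errfi1 (0.96), a feedback inhibitor of the EGF receptor, Pmp22 (0.93), a membrane protein of peripheral myelin, the transcription factor gene Klf4 (0.91), the proton-sensing receptor gene Gpr4 (0.90) and the transcription factor gene Cebpd (0.90). The 5 lowest were Wdr37 (-0.92), Klhdc10 (-0.90), the ectonucleotidase gene Nt5e (-0.87), Atl2 (-0.87) and Bbs4 (-0.85). By the same measure the r of Noct was 0.48 with Arntl, 0.46 with Per1 and -0.35 with Dbp. Without control 6 and iNICD 6 it was 0.95 with Errfi1, -0.03 with Arntl, 0.75 with Per1 and 0.17 with Dbp, and 4 of the 5 highest and 2 of the 5 lowest genes were shared. With median-of-ratios scaling 4 and 1 were shared.

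None of the 5 genes most like Noct was called between groups, beside 6.71% of all genes tested. Errfi1 was at 36.7, 58.4 and 98.1 CPM as the lowest, median and highest control and at 16.8, 39.8 and 78.0 CPM in iNICD, and the groups overlapped. Its log2 difference was -0.66 (SE 0.35, limma adjusted p = 0.35). Klf4 was at -0.64 (SE 0.29, adjusted p = 0.26) and Cebpd at -0.30 (SE 0.31, adjusted p = 0.68), with Pmp22 at -0.15 (SE 0.09, adjusted p = 0.42) and Gpr4 at -0.36 (SE 0.12, adjusted p = 0.10). As an example of libraries with near Errfi1 levels, iNICD 5 held 78.0 CPM of Errfi1 with 12.7 CPM of Noct, and control 4 held 73.3 CPM of Errfi1 with 40.8 CPM of Noct. Of the 5 genes that ran against Noct, Nt5e rose by 0.47 (SE 0.08, adjusted p = 0.0030) and Atl2 by 0.34 (SE 0.10, adjusted p = 0.044). Over all genes tested 4.87% were called higher, and a difference from that share was not tested.

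**Figure D4:**
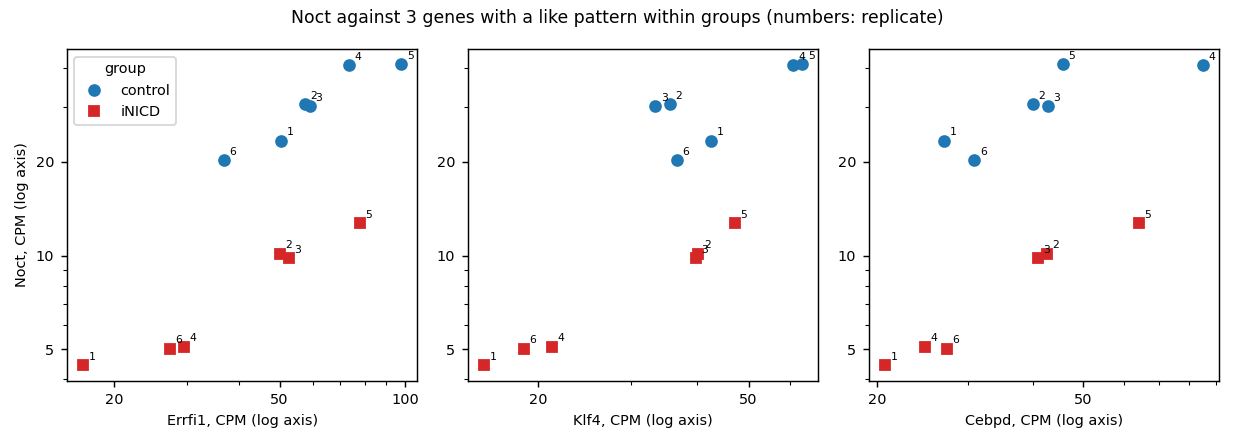
Noct against Errfi1, Klf4 and Cebpd in the 12 libraries, all in CPM on log axes, with circles for control, squares for iNICD and numbers for the replicate. Within each group libraries with more of each gene tend to have more Noct, and the iNICD points (4.44 to 12.7 CPM of Noct) lie below the control points (20.2 to 41.0 CPM).

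For Arntl the genes most like it were Leo1 (0.96), a subunit of the PAF1 complex, Adam19 (0.93), Nfil3 (0.90), Csk (0.90) and Spon2 (0.89). The genes running most against it were Rsad1 (-0.96), Tspan4 (-0.96), Fam76a (-0.96), Bhlhe41 (-0.92) and Mapk12 (-0.91). Nfil3, a repressor at D-box elements, and Bhlhe41, a repressor at E-boxes, belong to the clock. These likenesses leaned on library 6. Without it in both groups r ran from 0.25 (Adam19) to 0.67 (Leo1) for the 5 highest, with Nfil3 at 0.59. For the 5 lowest it ran from -0.70 (Fam76a) to -0.20 (Mapk12), with Rsad1 at -0.53 and Bhlhe41 at -0.21. None of these 10 genes was then among the 5 at its end. With median-of-ratios scaling 3 of the 5 highest and 2 of the 5 lowest were shared. Of the 10, Mapk12 rose in iNICD (0.47, SE 0.10, adjusted p = 0.0064), beside 4.87% of all genes tested called higher.

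Promoter sequences of the clock genes are shown because some clock genes are known targets of shared elements. RefSeq (GRCm38.p6) gave 11 start sites for 9 of the 10 genes, with Per2 the gene not matched, and the 250 bases before each start were read on the gene's strand. The letters searched on both strands were CACGTG (E-box), CACGTT (E-prime box), TTATGTAA or TTATGCAA (D-box), TAGGTCA or TGGGTCA (core of the ROR and REV-ERB element), TGACGTCA (cAMP response element) and CGTGGGAA (RBPJ motif). The windows of Noct (chr3:51224197-51224446, plus strand), Per1 (chr11:69098699-69098948, plus strand), Per3 (chr4:151044666-151044915, minus strand) and Cry1 (chr10:85185055-85185304, minus strand) are written 5′ to 3′, with matches in capitals.
Noct: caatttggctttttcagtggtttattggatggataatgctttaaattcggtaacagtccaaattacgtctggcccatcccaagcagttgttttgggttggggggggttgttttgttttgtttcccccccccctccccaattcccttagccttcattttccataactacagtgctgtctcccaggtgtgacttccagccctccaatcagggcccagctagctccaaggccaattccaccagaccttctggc
Per1: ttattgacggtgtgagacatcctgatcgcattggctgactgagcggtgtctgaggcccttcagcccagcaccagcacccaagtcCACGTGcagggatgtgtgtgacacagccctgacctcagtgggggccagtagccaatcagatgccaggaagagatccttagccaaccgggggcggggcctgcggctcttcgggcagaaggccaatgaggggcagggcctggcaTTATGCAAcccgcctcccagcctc
Per3: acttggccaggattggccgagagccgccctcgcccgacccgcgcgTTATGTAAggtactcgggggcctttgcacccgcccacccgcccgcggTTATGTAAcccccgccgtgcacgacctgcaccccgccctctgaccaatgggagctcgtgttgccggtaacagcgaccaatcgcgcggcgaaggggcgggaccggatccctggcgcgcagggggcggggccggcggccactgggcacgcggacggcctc
Cry1: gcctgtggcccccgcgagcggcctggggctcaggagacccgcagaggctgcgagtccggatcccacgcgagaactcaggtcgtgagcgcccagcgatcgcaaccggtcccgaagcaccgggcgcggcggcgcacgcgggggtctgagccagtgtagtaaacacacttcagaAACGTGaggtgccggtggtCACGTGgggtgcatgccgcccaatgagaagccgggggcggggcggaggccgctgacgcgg
In the window shown, Per1 had an E-box 166 bases and a D-box 24 bases before that start. The window of the other Per1 start (chr11:69099902-69100151, plus strand) held none of the 6 motifs. Per3 had a D-box at 205 and at 158 bases, and Cry1 had an E-prime box at 79 and an E-box at 60 bases.

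Across the 11 windows, the E-box, the E-prime box and the D-box were each in 2. The E-box was in a window of Cry1 and of Per1. The E-prime box was in a window of Cry1 and of Nr1d1, and the D-box in a window of Per1 and of Per3. Cry1 was in the opposite arm to Per1 and Nr1d1, whereas Per1 and Per3 were in the same arm. A link between the elements and the arms was not tested. Among 32817 windows of all genes, 6.02% held the E-box, 3.85% the E-prime box and 1.499% the D-box. Each was thus in a larger share of the 11 windows, which was not tested and rests on 2 windows per element. Arntl and Per1 each gave 2 of the 11 windows, and those of Arntl overlap, so the windows are not all separate promoters. The ROR and REV-ERB core (5.39% of all windows), the cAMP response element (1.55%) and the RBPJ motif (0.637%), the site of the DNA-binding partner of Notch, were in none of the 11. The Noct window held none of the 6 motifs. A missing match says only that these letters are not in that window.

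**Figure D5:**
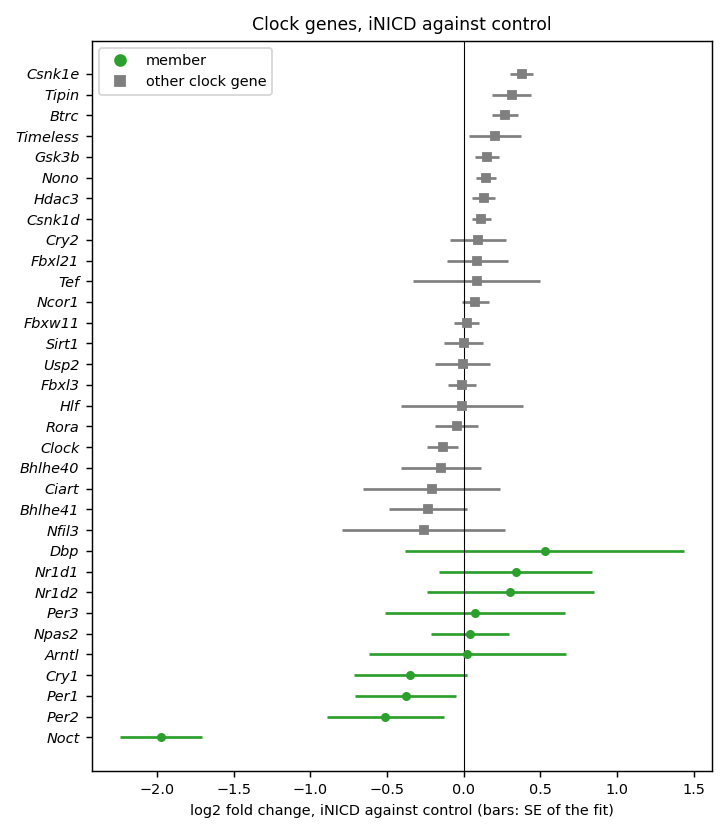
Log2 fold change, iNICD against control, of the 10 genes (green circles) and of 23 of the 24 other clock genes tested (grey squares), with bars for the SE of the fit. Noct lies at -1.97, the other 9 lie between -0.51 and 0.53, and the other clock genes drawn lie between -0.26 and 0.38.

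In the rest of the clock machinery a single gene was called. Of 26 further genes of the core clock and its regulators, 24 were tested (not Arntl2 or Rorb), 1 rose and none fell, which is no larger a share than the 6.71% of all genes tested, with a median log2 fold change of 0.05, the same as over all genes. The gene that rose was Csnk1e, a casein kinase gene whose product phosphorylates PER proteins. It went from 61.0, 63.6 and 72.7 CPM as the lowest, median and highest control to 74.2, 85.6 and 96.7 CPM in iNICD, without overlap (0.38, SE 0.08, limma adjusted p = 0.0068). Its sister kinase gene Csnk1d was at 0.11 (SE 0.06, adjusted p = 0.34). Without control 3 the count was 2, beside 822 of all genes.

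Among the other transcription factors of the clock none passed the test. Clock averaged 161 ± 22.6 CPM for controls against 146 ± 14.9 CPM for iNICD (SD, 6 libraries each), a log2 fold change of -0.14 (SE 0.10). Rora, a nuclear receptor gene whose product activates Arntl, was at -0.05 (SE 0.14). The partners of Dbp in its family, Tef (0.08, SE 0.42) and Hlf (-0.01, SE 0.40), and their antagonist Nfil3 (-0.26, SE 0.53) had SEs well above that of Clock. Values were -0.15 (SE 0.26) for Bhlhe40, -0.23 (SE 0.25) for Bhlhe41, -0.21 (SE 0.45) for the repressor gene Ciart and 0.09 (SE 0.18) for the repressor gene Cry2. These genes also differed in their spread within groups. Nfil3, Ciart, Tef and Hlf were at percentiles 99.3, 98.9, 98.4 and 98.2 of all tested genes by SD about the group means, whereas Clock was at 38.2, Csnk1e at 11.8 and Csnk1d at 0.732.

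Of 20 clock output genes Kcnip2 fell and none rose. In the main run 6.71% of all genes tested were called. Neither this list nor the 3 pathway lists that follow had a larger share there, so those counts show nothing particular to them. Some alternatives called more genes of a list, and a difference from the share of all genes was not tested. Kcnip2, a subunit of the transient outward potassium channel, went from 9.62, 21.8 and 28.0 CPM as the lowest, median and highest control to 6.81, 7.44 and 12.7 CPM in iNICD (-1.15, SE 0.22, adjusted p = 0.0058), and control 4 was the control within the iNICD range. The list had a median of -0.21 with 16 of 20 values below 0. Without control 4, 4 output genes were called, beside 1239 of all genes. Without iNICD 5 it was 2, beside 927 of all genes.

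Of 21 deadenylation genes, which include the relatives of Noct, Btg1 rose and none fell, with a median of 0.09. Btg1, an antiproliferative protein that binds the CCR4-NOT deadenylase, went from 12.9 ± 1.36 to 18.4 ± 3.34 CPM (SD, n = 6 each, 0.48, SE 0.12, adjusted p = 0.021). The call was lost without iNICD 1 (adjusted p = 0.056) or iNICD 3 (0.057), which left 0 of 21. Of 21 genes of NAD and NADP metabolism, Me3, the mitochondrial NADP-dependent malic enzyme, fell from 74.9 ± 3.96 to 60.1 ± 3.53 CPM (-0.32, SE 0.06, adjusted p = 0.0069) and none rose, with a list median of -0.05. Without control 4, 3 genes of that list were called, beside 1239 of all genes. Of 14 glucocorticoid response genes none was called by limma, edgeR or DESeq2 (1 had an unadjusted p under 0.05), with a median of -0.29. Without iNICD 5, 2 of the 14 were called, beside 927 of all genes. Without the 3 libraries rich in Gm42418 the calls of Kcnip2 (adjusted p = 0.061), Btg1 (0.11) and Me3 (0.057) were lost in a fit with 9 libraries, while their log2 fold changes were -1.13, 0.43 and -0.30. Csnk1e was called in every alternative run.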

How the data were processed

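Right atrial RNA of 6 control and 6 iNICD libraries was used, grouped by the genotype label. The values were the gene CPM deposited by the authors, with 1 column per library. Per the submitters' processing notes, the tools were STAR 2.4.0b and featureCounts, and the sources used here do not give the build, annotation or strand setting. Of 41264 rows, 574 repeated an identifier with the same values and were used once. All values above 0 were whole multiples of 1 read within a tolerance of 0.001 (100% in each library), so whole reads were recovered for edgeR and DESeq2, which were run as alternatives.

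The main test was limma (trend, robust) on log2(CPM + 0.5) without a replicate block, for genes reaching 1 CPM in 6 libraries, with Benjamini-Hochberg adjustment over all 14336 tested genes and a threshold of 0.05. Fold changes on this scale understate the change of low genes. Correlations within a group used exact permutation. The 10 genes and all gene lists were chosen with earlier results of these data known. The genes named were the 10 genes, a fixed choice of further clock genes, up to 6 called genes of each list, and the 5 genes with the highest and lowest r with Noct and with Arntl, predicted genes passed over. Positions and exon lengths came from GENCODE M21. limma was tested on simulated data. Versions were limma 3.58.1 under R 4.3.3, DESeq2 1.42.0, edgeR 4.0.16 and matplotlib 3.10.9. Alternatives were other pseudocounts, filters and scalings, array weights, no robust estimation, the replicate block, an Xist covariate, each library left out, and others added after seeing the data. Some genes that the rule names are not reported here.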

Additional observations from a re-analysis of the deposited data

Results flagged for a closer look

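Dbp and Per3 had single libraries far from the others of their group, when the gap to the nearest library was compared with the range of the group. Dbp was at 116 CPM in control 6, where the next control was at 14.9 CPM, and at 86.4 CPM in iNICD 6, where the next iNICD library was at 34.7 CPM. Per3 was at 117 CPM in iNICD 6, where the next was at 49.3 CPM. These 3 came from 20 sets of 6 values, 1 per gene and group. Chance flags about 1 set in 20 where values are normally distributed and sets are independent. CPM of these genes were skewed and the genes co-varied, so that rate need not hold here. All 3 were in libraries numbered 6, and the time of day of collection was not tested, as the labels do not give it.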

How the results depend on the processing

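The Noct difference stayed between -2.26 and -1.78 in 28 alternatives, and no other of the 10 genes was called in any of those run. All 10 values moved by less than 1 SD, while the sign of Arntl (13 alternatives), Npas2 (10), Per3 (5) and Nr1d2 (1) changed. The genes called in all numbered 962, or 1522 with array weights, 1425 with DESeq2 and 1091 with the replicate block. They were 527 without the libraries rich in Gm42418, and 644 to 1239 with 1 library left out. The share of calls that were higher was 72.6%, and 61.6% with median-of-ratios scaling, 59.7% with quantile normalization, 61.7% with TMM, 62.5% with edgeR and 58.8% with DESeq2. The 1 call among further clock genes became 2 with array weights or DESeq2, and 1 to 2 with 1 library left out. The 1 call among output genes became 2 under median-of-ratios, quantile and TMM scaling, the Xist covariate, edgeR, the Arntl covariate and without library 6 in both groups, 3 with the replicate block, 4 with array weights or DESeq2, 0 without the libraries rich in Gm42418, and 1 to 4 with 1 library left out. The 1 deadenylation call became 2 with array weights, 0 without the libraries rich in Gm42418 and 0 to 1 with 1 library left out. The 1 NADP call became 2 with array weights, edgeR or DESeq2, 0 without the libraries rich in Gm42418 and 1 to 3 with 1 library left out. The 0 glucocorticoid calls became 1 with the Xist covariate or without the libraries rich in Gm42418, and 0 to 2 with 1 library left out. The 6 correlations past correction became 0 by Spearman's rho, 0 without library 6 in both groups and 0 to 0 with 1 library left out. With 5 libraries the exact p cannot fall below 0.0083, so the counts with libraries left out cannot show how steady the correlations were. The cause of these moves was not tested. Leaving out the libraries numbered 6 or rich in Gm42418 and the Arntl covariate were chosen after seeing the data.

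Over all genes the same-numbered libraries had correlations of deviations of -0.01 to 0.32, with 4 of 6 over 0.1. There 3 of 6 controls and 3 of 6 iNICD libraries correlated best with their own number. Over the 10 genes the correlations were 0.08 to 0.98, with 5 of 6 over 0.1. In that set 4 of 6 controls and 3 of 6 iNICD libraries correlated best with their own number. The main test did not take the numbers as pairs, and a structure shared by same-numbered libraries was not tested. With the replicate block 794 genes were higher and 297 lower, the Noct difference remained -1.97, and 4 of the 10 genes rather than 8 lay above the 95th percentile of SD.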
